A study of Mus musculus with 24 samples.

Results

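The 46 genes described here encode the cell cycle machinery: the enzymes that license and copy DNA, the cyclins and their kinases, the inhibitors of those kinases, the E2F and retinoblastoma-family regulators, and the proteins of mitosis. They were listed by symbol for their known functions, with no measured value in the rule, but with earlier results of these data known. They are 46 of the 54532 features in the deposited count table. All 46 were found in the table, and all 46 were among the 14692 genes that passed the filter on low counts and were tested. All are annotated as protein coding in GENCODE M21. The study sequenced polyA RNA of mouse peritoneal macrophages in 24 libraries, 4 in each of 6 groups. M1+ONX-0914 cells received LPS, IFN-γ and ONX-0914, and M1 cells received LPS and IFN-γ. M2+ONX-0914 cells received IL4 and ONX-0914, and M2 cells received IL4. M0+ONX-0914 cells received the inhibitor without a polarizing agent, and M0 cells were the control. ONX-0914 is a small molecule that inhibits Psmb8 (LMP7), a catalytic subunit of the immunoproteasome. Each library was a pool of macrophages from 2 to 3 mice, 50000 cells in all, per the labels. The sources at hand state no strain, sex, age, dose or time of treatment.

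Growth signals raise the D cyclins, which with Cdk4 and Cdk6 phosphorylate the retinoblastoma family and release E2F. E2F factors then switch on cyclin E and the genes of DNA replication, and a later wave of genes with a CHR element in the promoter encodes the machinery of mitosis. CDK inhibitors of the Cip/Kip and Ink4 families hold these kinases back. Macrophages of the peritoneal cavity can renew themselves by division in place. IL-4 is known to drive division of resident macrophages in mice, while LPS and interferon-γ are known to stop macrophage division.

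Promoter matches to the E2F site or the CHR element are shown for 5 members that have them. Replication genes and mitotic genes are followed separately through the results. Whether these elements divide the genes into the waves described above was not tested. The sequences are RefSeq promoter bases on GRCm38.p6, written 5′ to 3′ on the gene's own strand and ending just before the annotated start, except for Mki67, whose stretch lies further upstream. Capitals mark matches to an E2F site, to the CHR element TTTGAA and to the CCAAT box, on either strand. The E2F site was searched as TTTCGCGC, TTTGGCGC, TTTCCCGC and TTTGCCGC. The printed stretches are chr8:75109339-75109508 on the plus strand for Mcm5, and, on the minus strand, chr2:157204535-157204624 for Rbl1, chr10:69352913-69353062 for Cdk1, chr11:99024190-99024339 for Top2a and chr7:135716430-135716529 for Mki67.
Mcm5: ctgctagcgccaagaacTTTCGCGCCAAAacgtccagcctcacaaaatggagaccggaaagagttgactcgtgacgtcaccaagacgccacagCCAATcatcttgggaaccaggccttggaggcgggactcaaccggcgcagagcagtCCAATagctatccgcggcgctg
Rbl1: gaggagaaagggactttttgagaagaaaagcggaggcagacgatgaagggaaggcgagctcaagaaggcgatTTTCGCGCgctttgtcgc
Cdk1: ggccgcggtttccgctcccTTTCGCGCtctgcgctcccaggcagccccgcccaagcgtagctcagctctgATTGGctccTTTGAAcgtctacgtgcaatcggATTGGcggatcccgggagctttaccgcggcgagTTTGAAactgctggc
Top2a: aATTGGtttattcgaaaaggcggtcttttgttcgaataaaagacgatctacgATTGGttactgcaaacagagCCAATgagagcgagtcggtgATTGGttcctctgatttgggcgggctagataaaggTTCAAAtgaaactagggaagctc
Mki67: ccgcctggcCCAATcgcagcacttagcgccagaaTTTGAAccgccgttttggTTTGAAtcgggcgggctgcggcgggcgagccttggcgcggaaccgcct

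In Mcm5 the forward match TTTCGCGC and the reverse-strand match GCGCCAAA share letters. Windows of 250 bases before to 50 after the start were given for 37 of the 46 members, 43 windows in all. An E2F match stood in 11 of those 43 windows (25.6%), against 744 of all 32851 windows (2.26%). The CHR stood in 11 of 43 (25.6%), against 17.9% of all windows, and the CCAAT box in 29 of 43 (67.4%), against 37.4%. By role, 4 of the 5 MCM genes with a window had an E2F match, and none of the 8 mitosis genes did. Such a match was also in 2 of the 3 origin licensing and firing genes and 2 of the 3 E2F and pocket protein genes. It was in 1 gene each of the E cyclin and Cdk2, mitotic cyclin and Cdk1, and Pcna and Uhrf1 roles. None of the 4 nucleotide supply genes, 3 D cyclin and kinase genes or 4 CDK inhibitor genes had an E2F match. The CHR was found in 6 of those 8 mitosis genes and in 2 of the 3 mitotic cyclin and Cdk1 genes. It was also in 1 of the 5 MCM genes, 1 origin licensing and firing gene and 1 E2F and pocket protein gene. A match is a description of the letters and was not tested as a binding site. Promoter windows were not matched for Rb1, Ccnd1, Gins1, Mcm4, Ccne2, Gins2, Ccna2, Aurkb and Ccnd2.

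Total counts ran from 18230924 to 22882972 per library. Levels below are TMM-scaled CPM (counts scaled to a common library size), and ± marks the SD over 4 libraries for a level and the SE for a log2 change. M1 replicate 2 stood apart before any comparison: 0.3% of its counts lay on mitochondrial genes, against 0.962% to 1.78% in the other 23 libraries. Across all genes it also differed more from the other M1 libraries than those did from each other. Listed macrophage markers were all detected, 12 of 12, and summed to between 18100 and 24200 CPM in every library. Of the other cell types looked for, mesothelial cell and fibroblast markers summed to between 725 and 1100 CPM, with no marker at 0. B cell markers summed to 39.7 to 45.1 CPM in M1+ONX-0914 and 78.6 to 90.7 CPM in M1, to 60.2 to 67.8 CPM in M2+ONX-0914 and 114 to 123 CPM in M2, and to 61.1 to 67 CPM in M0+ONX-0914 and 107 to 116 CPM in M0, with no marker at 0. Macrophage markers summed to 18300 to 18800 CPM in M1+ONX-0914 and 20100 to 22900 CPM in M1, to 18800 to 20500 CPM in M2+ONX-0914 and 20000 to 22000 CPM in M2, and to 18100 to 20400 CPM in M0+ONX-0914 and 20800 to 24200 CPM in M0. Neutrophil markers summed to 104 to 118 CPM in M1+ONX-0914 and 137 to 159 CPM in M1, and to 44.1 to 82.1 CPM in the other libraries, with S100a9, Ly6g and Retnlg at 0 in every group. Mast cell and basophil markers summed to 11.3 to 15 CPM in M1+ONX-0914 and 21 to 32.5 CPM in M1, and to at most 8.4 CPM elsewhere. T and NK cell markers summed to 8.04 to 13.3 CPM in M1+ONX-0914 and 18.7 to 24.7 CPM in M1, and to at most 3.91 CPM elsewhere, with Ncr1 at 0 in every group. Dendritic cell markers summed to 7.06 to 7.85 CPM in M1+ONX-0914 and 8.62 to 12.6 CPM in M1, and to at most 5.69 CPM elsewhere. These sums moved with polarization or with ONX-0914, and their part in the results below was not tested.

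Per kilobase of exon, the levels of the 46 genes were spread widely. Averaged over the 6 groups, Pcna, the sliding clamp of the replication fork, stood highest at 92 CPM per kb, followed by Cdkn1a at 54.7 CPM per kb and Cdk4 at 41.1 CPM per kb. Rbl1 and Cdt1 followed at 12.4 and 10.7 CPM per kb. Bub1 and Cdc6 were lowest, at 0.434 and 0.398 CPM per kb. The 46 genes summed to 1229 ± 12.1 CPM in M1+ONX-0914 and 1712 ± 11.2 CPM in M1, to 1007 ± 8.49 CPM in M2+ONX-0914 and 1181 ± 29.9 CPM in M2, and to 980.6 ± 16.3 CPM in M0+ONX-0914 and 1071 ± 26.9 CPM in M0. The sum is carried by its abundant members, so the genes are taken one by one below.

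With ONX-0914, the cell cycle genes were mostly lower in M1 and M2 cells, while 8 of the 46 passed the test in M0 cells. In M1+ONX-0914 against M1, 35 of 46 fell, none rose and 11 did not pass an adjusted p of 0.05, while 44.3% of all genes tested were called, 16.6% upward and 27.7% downward. In M2+ONX-0914 against M2, 25 fell and 2 rose, with 36.4% of all genes called, 17.6% upward and 18.8% downward. In M0+ONX-0914 against M0, 6 fell and 2 rose, with 21.0% of all genes called, 9.54% upward and 11.4% downward. The median log2 change of the 46 was -0.489 in M1, beside -0.081 for all genes, -0.30 in M2, beside -0.0012, and -0.065 in M0, beside -0.00082. In bulk RNA, fewer cells in cycle and less of each RNA per cell cannot be told apart.

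**Figure D1:**
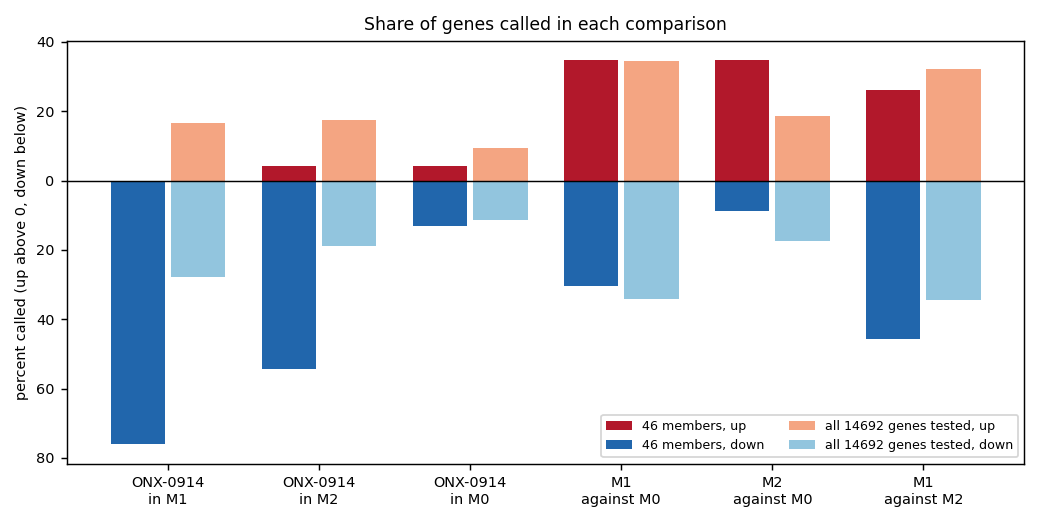
Percent of genes called at an adjusted p under 0.05 in each of 6 comparisons, upward above 0 and downward below; dark bars are the 46 cell cycle genes and light bars all 14692 genes tested. With ONX-0914 the dark downward bars reach 76.1% in M1 and 54.3% in M2, against 27.7% and 18.8% of all genes, and 13% in M0 against 11.4%.

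The falls in M1 were moderate in size. Called changes ran from -1.52 to -0.25 on the log2 scale, and 5 reached a log2 change of 1 in size: Ccnd2, Ccnb2, Ccnd3, Ccna2 and Aurkb. The 4 treated and 4 untreated M1 libraries did not overlap for 27 of the 46 genes, beside 36.0% of all genes tested. In M2 the called changes ran from -0.85 to 0.41 and none reached 1 in size. The genes that fell in both M1 and M2 numbered 22, which is 62.9% of those that fell in M1 and 88.0% of those that fell in M2. Of all genes tested, 13.6% fell in both, which is 49.0% of those that fell in M1 and 72.4% of those that fell in M2. Of these, Bub1b, Cdkn2d, Gins2, Mcm3, Pcna and Rbl1 also fell in M0. Ccnd2 and Cdkn1a fell in M1 and rose in both M2 and M0. Birc5, Ccnb1, Ccne2, Cdc45, Cdc6, Cdkn2c, E2f2 and Rb1 passed the test in none of the 3 states.

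**Figure D2:**
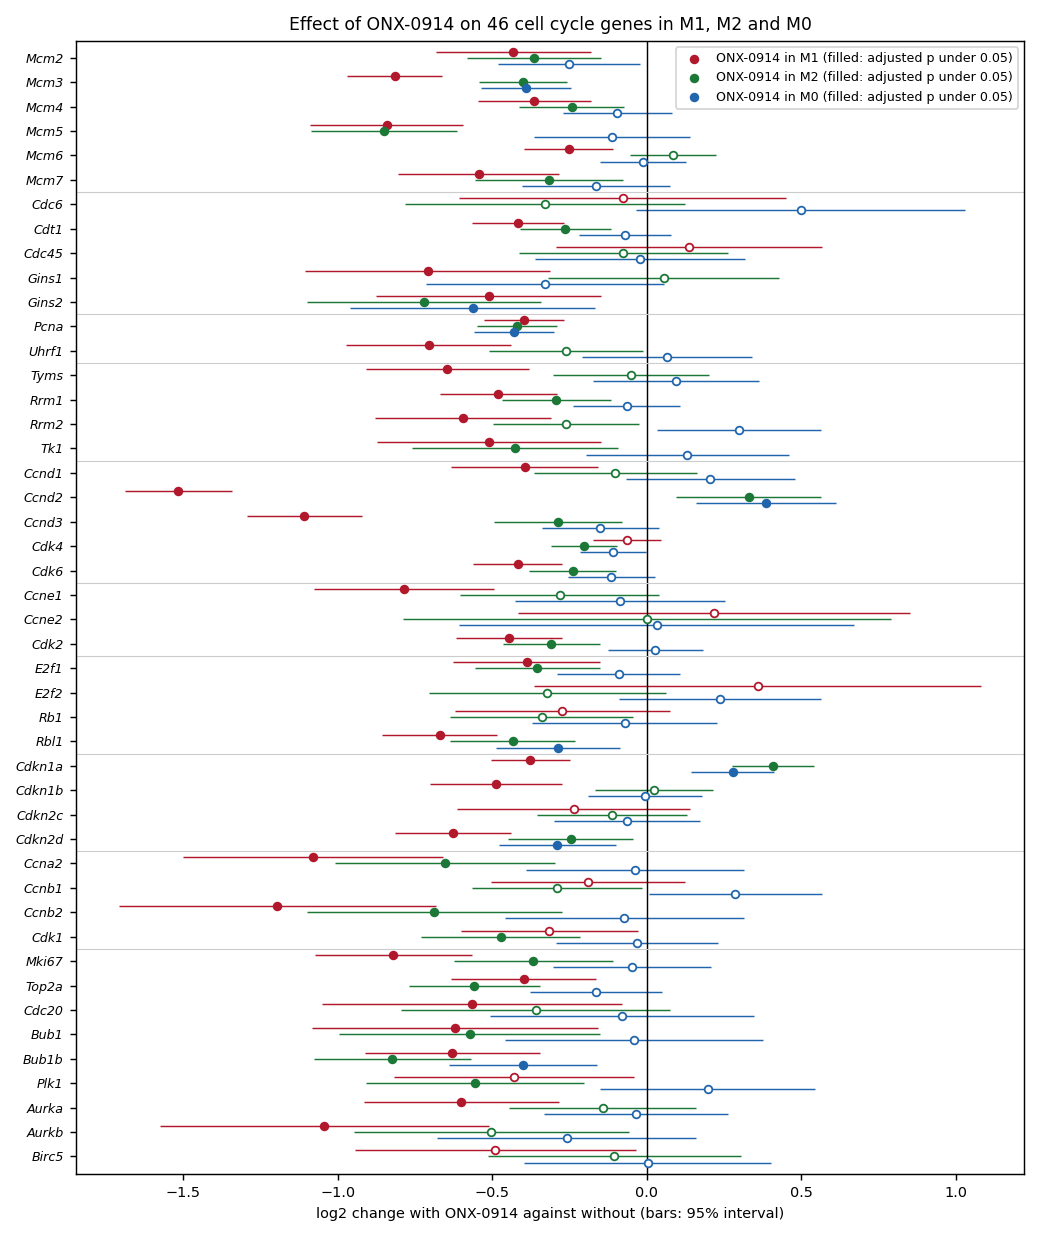
Log2 change with ONX-0914 against without for each of the 46 genes in M1 (red), M2 (green) and M0 (blue), with 95% intervals; filled points passed an adjusted p of 0.05 and lines divide the 10 roles. Ccnd2 (-1.52) and Ccnd3 (-1.11) in M1 lie apart from their own M2 and M0 points, while the 3 points of Pcna (-0.40, -0.42 and -0.43) coincide.

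These counts depend on the libraries in the fit. When the 8 M1 libraries were fitted alone, 25 rather than 35 genes fell in M1, with a median of -0.397 beside 0.0132 for all genes. The calls lost in that fit were those of Mcm2, Mcm6, Gins2, Tk1, Ccnd1, E2f1, Cdkn1b, Bub1, Top2a and Cdc20. Without M1 replicate 2, 33 fell, of which 32 were also called with all libraries, so a call was gained as well. The calls of Tk1 (log2 change -0.41), Gins2 (-0.40) and Cdc20 (-0.41) in M1 were lost.

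Polarization itself moved the genes in both directions. In M1 against M0, 16 rose and 14 fell, beside 68.8% of all genes called, 34.6% upward and 34.2% downward, so that the share called was near that of all genes. D cyclins, cyclin E1, Cdkn1a and Rbl1 were among those that rose, and E2f2, Cdkn2c, Rb1 and Cdkn1b among those that fell. In M2 against M0, 16 rose and 4 fell, beside 36.2% of all genes called, 18.7% upward and 17.5% downward. Cdc6, Rrm2, Mcm5 and Uhrf1 had the largest rises in M2. In M1 against M2, 12 were higher and 21 lower in M1, beside 66.6% of all genes called, 32.2% upward and 34.4% downward. The medians were 0.0353 for M1 against M0 (all genes -0.02), 0.139 for M2 against M0 (0.0057) and -0.289 for M1 against M2 (-0.04). The first pair of comparisons shares the M0 libraries, and the M1, M2 and M0 libraries also serve as the untreated side of the ONX-0914 comparisons.

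**Figure D3:**
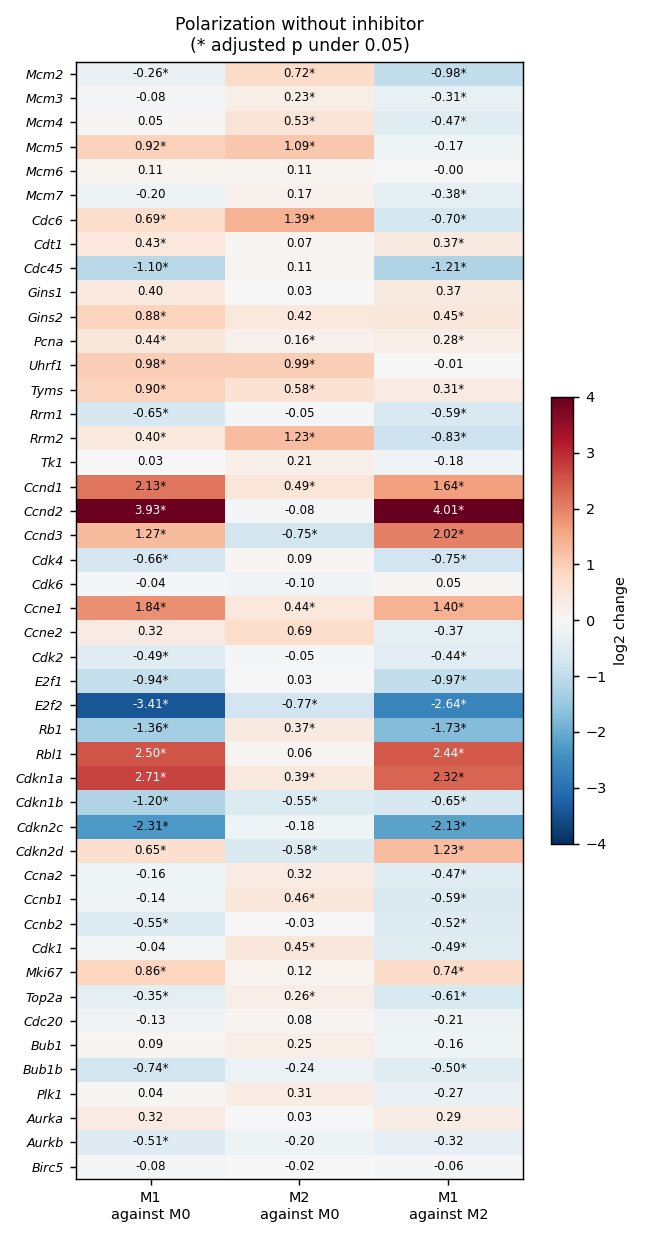
Log2 change of each of the 46 genes between untreated groups, in the columns M1 against M0, M2 against M0 and M1 against M2; red is higher and blue lower in the first-named group, and a star marks an adjusted p under 0.05. Ccnd2 (3.93), Cdkn1a (2.71) and Rbl1 (2.5) are the darkest red and E2f2 (-3.41) and Cdkn2c (-2.31) the darkest blue in M1 against M0, while the M2 column stays between -0.77 and 1.39.

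The D cyclins are the growth-signal sensors of G1. Ccnd2 (chr6:127125162-127152193 in GRCm38), which encodes cyclin D2, had 24, 26.6, 26.0 and 25.7 CPM in M1+ONX-0914, against 70.7, 73.9, 79.8 and 68.0 CPM in M1. It had 5.63, 5.58, 4.97 and 6.60 CPM in M2+ONX-0914, against 4.54, 4.10, 4.72 and 4.73 CPM in M2. In M0+ONX-0914 the values were 6.10, 5.66, 6.53 and 6.73 CPM, against 3.86, 5.10, 4.30 and 5.80 CPM in M0. All 4 M1 libraries lay far above every M0 and M2 library, and all 4 M1+ONX-0914 libraries lay in between. The log2 change was 3.93 ± 0.0971 for M1 against M0 (adjusted p = 3.06e-23), and 4.01 for M1 against M2. With ONX-0914 it was -1.52 ± 0.0829 in M1 (adjusted p = 3.33e-14), 0.33 ± 0.112 in M2 (adjusted p = 0.0214) and 0.39 ± 0.108 in M0 (adjusted p = 0.0113). The M0 call was lost without M0 replicate 1 (0.30) and the M2 call without M2 replicate 2 (0.30) or M2+ONX-0914 replicate 4 (0.25).

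Ccnd3 (chr17:47505051-47599691), cyclin D3, had 25.3, 23.4, 26.6 and 21.2 CPM in M1+ONX-0914, against 45.9, 62.4, 52.9 and 47.1 CPM in M1. The 4 M2+ONX-0914 libraries had 11.1, 11.4, 10.3 and 9.33 CPM, against 11.1, 12.7, 13.4 and 14.2 CPM in M2. In M0+ONX-0914 the libraries had 19.8, 20.1, 18.7 and 19.2 CPM, against 20.8, 22.0, 22.4 and 21.2 CPM in M0. The treated M1 libraries overlapped the M0 ones, and M2 libraries lay below both. Ccnd3 rose in M1 against M0 by 1.27 ± 0.0879 and fell in M2 against M0 (-0.75 ± 0.093). ONX-0914 lowered it in M1 (-1.11 ± 0.0882, adjusted p = 6.3e-11) and in M2 (-0.29 ± 0.0986, adjusted p = 0.0236). The M2 call was lost without replicate 3 or 4 of M2+ONX-0914 or of M2, with values of -0.28 to -0.23.

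Ccnd1 (chr7:144929931-144939925), cyclin D1, had 35.2, 31.2, 29.0 and 24.4 CPM in M1+ONX-0914, against 33.9, 44.7, 44.4 and 34.8 CPM in M1. The groups overlapped by 1 treated library. It had 10.5, 12.0, 12.9 and 11.9 CPM in M2+ONX-0914, against 14.1, 12.3, 12.7 and 11.6 CPM in M2. The 4 M0+ONX-0914 libraries had 9.12, 12.4, 9.23 and 11.0 CPM, against 9.89, 8.19, 10.3 and 7.83 CPM in M0. The treated and untreated groups overlapped in both states. It rose in M1 against M0 (2.13 ± 0.123, adjusted p = 8.45e-15) and, less, in M2 against M0 (0.49 ± 0.128, adjusted p = 0.00348). The fall with ONX-0914 in M1 was -0.40 ± 0.113 (adjusted p = 0.00551), and it did not pass with the M1 libraries fitted alone (-0.30). Exons of LTO1, on the opposite strand, cover 23.4% of the exon length of Ccnd1, and no source at hand states the strand setting of the counting. The same limit touches Cdk4, with 19.7% under Tspan31, Ccne2, with 17.4% under Ints8, and Ccna2, with 12.5% under Exosc9. It also touches Rb1, with 8.1% under Rcbtb2 and 6.8% under Lpar6. Gins2 is described below, and overlaps with any single gene in the remaining members were at most 7.7%.

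Cdk4 and Cdk6 are the kinases that D cyclins activate. Cdk4 averaged 94.1 ± 1.06 CPM in M1+ONX-0914 and 98.4 ± 5.34 CPM in M1, 144 ± 7.13 CPM in M2+ONX-0914 and 166 ± 7.48 CPM in M2, and 144 ± 7.17 CPM in M0+ONX-0914 and 155 ± 6.55 CPM in M0. So the kinase gene was lowest in M1, where the cyclin genes were highest: -0.66 ± 0.0521 against M0 (adjusted p = 7.93e-12) and -0.75 ± 0.0521 against M2. With ONX-0914, Cdk4 fell in M2 alone among the 3 tests (-0.20 ± 0.0513, adjusted p = 0.00257), and neither difference of its effect between M2 and another state passed. Cdk6 averaged 45.9 ± 2.22 CPM in M1+ONX-0914 and 61.2 ± 5.1 CPM in M1, and fell in M1 (-0.42 ± 0.0688) and M2 (-0.24 ± 0.0675). No comparison of Cdk6 between M1, M2 and M0 passed the test.

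Cyclin E, with Cdk2, carries the cell into S phase. Ccne1 (chr7:38097984-38107534) had 7.70, 9.24, 8.54 and 10.8 CPM in M1+ONX-0914, against 14.8, 16.1, 15.3 and 16.2 CPM in M1. It had 6.59, 3.72, 4.57 and 4.51 CPM in M2+ONX-0914, against 5.96, 6.75, 5.63 and 5.31 CPM in M2. M0+ONX-0914 libraries had 4.98, 3.73, 3.38 and 4.36 CPM, against 4.63, 4.51, 5.12 and 3.27 CPM in M0. The 2 M1 groups did not overlap each other or any other group. Ccne1 rose in M1 against M0 (1.84 ± 0.147, adjusted p = 1.07e-11) and in M2 against M0 (0.44 ± 0.155, adjusted p = 0.0284). The M2 call was lost without M2 replicate 1 (0.43), M2 replicate 2 (0.36) or M0 replicate 4 (0.31). ONX-0914 lowered it in M1 (-0.79 ± 0.139, adjusted p = 3.83e-05), with -0.28 in M2 and -0.09 in M0, neither called. Ccne2, the second E cyclin, stayed between 1.71 and 2.79 CPM in the means of all 6 groups and passed no test, with M1 replicate 2 at 0.346 CPM against 2.46 to 2.93 CPM in the other M1 libraries. Cdk2 averaged 11.6 ± 0.659 CPM in M1+ONX-0914 and 15.8 ± 1.43 CPM in M1, 17.3 ± 0.8 CPM in M2+ONX-0914 and 21.4 ± 1.73 CPM in M2, and 22.5 ± 1.08 CPM in M0+ONX-0914 and 22.1 ± 1.56 CPM in M0. It fell with ONX-0914 in M1 (-0.44 ± 0.082) and M2 (-0.31 ± 0.0751), and in M1 against M0 (-0.49 ± 0.0771).

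Among the E2F and pocket protein genes, Rbl1 was higher and Rb1 lower in M1 than in M0. Rbl1 (chr2:157145893-157204534), which encodes the pocket protein p107, had 125, 127, 120 and 121 CPM in M1+ONX-0914, against 221, 138, 214 and 212 CPM in M1. It had 26.4, 26.4, 26.4 and 27.9 CPM in M2+ONX-0914, against 36.9, 34.0, 37.2 and 36.6 CPM in M2. The values in M0+ONX-0914 were 28.9, 28.6, 28.4 and 27.4 CPM, against 37.1, 34.8, 31.3 and 35.2 CPM in M0. In each state the treated libraries lay below the untreated ones without overlap, and M1 replicate 2 was the low M1 library. The change was 2.5 ± 0.0944 for M1 against M0 (adjusted p = 5.21e-19), and -0.67 ± 0.0881, -0.43 ± 0.0962 and -0.29 ± 0.0957 with ONX-0914 in M1, M2 and M0. Without M1 replicate 2 the change was 2.64 for M1 against M0 and -0.81 with ONX-0914 in M1. The M0 call was lost without any of the 4 M0+ONX-0914 libraries or M0 replicate 1, 2 or 4, with values of -0.30 to -0.25. The E2F match of Rbl1 stands near the end of the stretch printed above.

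Rb1 (chr14:73183673-73325822), the retinoblastoma gene, had 16.7, 17.3, 16.0 and 16.8 CPM in M1+ONX-0914, against 24.7, 8.38, 24 and 23.1 CPM in M1. M2+ONX-0914 libraries had 50.8, 52.9, 54.0 and 53.3 CPM, against 67.5, 64.6, 67.8 and 67.1 CPM in M2, and M0+ONX-0914 ones had 48.1, 53.7, 48.3 and 46.9 CPM, against 49.2, 50.4, 55.0 and 52.3 CPM in M0. M1 replicate 2 had the lowest value of all 24 libraries, and the other 3 M1 libraries lay above all 4 treated ones. Rb1 fell in M1 against M0 (-1.36 ± 0.154, and -1.11 without that library) and rose in M2 against M0 (0.37 ± 0.141, adjusted p = 0.0418, lost without any of 9 libraries, with values of 0.35 to 0.40). Rb1 passed no ONX-0914 test, with -0.27, -0.34 and -0.07 in M1, M2 and M0. The M1 value takes in M1 replicate 2, at 8.38 CPM beside 23.1 to 24.7 CPM in the other M1 libraries. In M2, however, the treated libraries lay wholly below the untreated ones. The spread used in each of these tests is shared by all libraries and takes in M1 replicate 2.

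E2f2 (chr4:136172394-136196057), an activator E2F, had 0.5, 0.540, 0.830 and 0.415 CPM in M1+ONX-0914, against 0.637, 0.415, 0.404 and 0.315 CPM in M1. It had 2.2, 1.41, 2.68 and 2.63 CPM in M2+ONX-0914 and 2.84, 2.75, 2.90 and 2.65 CPM in M2, and 4.42, 6.61, 5.53 and 5.93 CPM in M0+ONX-0914 and 4.63, 4.12, 4.64 and 5.63 CPM in M0. The 3 states were fully separated, with M1 lowest and M0 highest. The change was -3.41 ± 0.24 for M1 against M0 (adjusted p = 6.6e-13) and -0.77 ± 0.167 for M2 against M0 (adjusted p = 0.000559), and no ONX-0914 test passed. E2f1, the other activator, averaged 7.37 ± 0.712 CPM in M1+ONX-0914 and 9.66 ± 2.02 CPM in M1, 14.7 ± 1.56 CPM in M2+ONX-0914 and 18.9 ± 0.648 CPM in M2, and 17.3 ± 0.892 CPM in M0+ONX-0914 and 18.5 ± 0.678 CPM in M0. It fell in M1 against M0 (-0.94 ± 0.103), and with ONX-0914 in M1 (-0.39 ± 0.113) and M2 (-0.35 ± 0.0965).

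The 4 CDK inhibitor genes split by state. Cdkn1a (chr17:29090976-29100727), which encodes p21, had 355, 331, 359 and 350 CPM in M1+ONX-0914, against 443, 509, 441 and 420 CPM in M1. It had 120, 123, 123 and 116 CPM in M2+ONX-0914, against 88.3, 94.4, 88.4 and 91.9 CPM in M2. In M0+ONX-0914 the libraries had 84.7, 86.7, 85.3 and 78.2 CPM, against 69.2, 72.1, 75.3 and 59.7 CPM in M0. Treated libraries lay wholly below untreated ones in M1 and wholly above them in M2 and M0. The change was 2.71 ± 0.066 for M1 against M0 (adjusted p = 2.14e-23) and 0.39 ± 0.0635 for M2 against M0. With ONX-0914 it was -0.38 ± 0.0613 in M1 (adjusted p = 1.32e-05), 0.41 ± 0.0629 in M2 (adjusted p = 8.03e-06) and 0.28 ± 0.0636 in M0 (adjusted p = 0.0022), and these ONX-0914 calls held under each alternative run.

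Cdkn2c (chr4:109660876-109667189), the Ink4 inhibitor p18, had 2.35, 1.98, 2.13 and 2.37 CPM in M1+ONX-0914, against 2.10, 3.05, 2.37 and 2.96 CPM in M1. M2+ONX-0914 libraries had 12.2, 8.19, 10.4 and 11.4 CPM, against 9.72, 12.3, 11.6 and 12.1 CPM in M2, and M0+ONX-0914 libraries had 10.7, 11.4, 12.3 and 14.9 CPM, against 12.7, 13.9, 12.5 and 12.5 CPM in M0. It was low in M1 whether or not ONX-0914 was present: -2.31 ± 0.141 for M1 against M0 (adjusted p = 3.22e-14), with no ONX-0914 test passed. Its relative Cdkn2d (chr9:21288410-21291407), p19, had 15.4, 15.7, 14.4 and 14.5 CPM in M1+ONX-0914, against 21.4, 26.8, 22.3 and 22.3 CPM in M1. It had 8.07, 7.74, 9.29 and 8.14 CPM in M2+ONX-0914, against 9.77, 9.95, 10.5 and 9.12 CPM in M2. The 4 M0+ONX-0914 libraries had 12.5, 12.6, 10.5 and 12.6 CPM, against 16.8, 13.9, 15.3 and 13.0 CPM in M0. Treated and untreated libraries overlapped in M2 and not in M1 or M0. It rose in M1 against M0 (0.65 ± 0.0877), fell in M2 against M0 (-0.58 ± 0.0913), and fell with ONX-0914 in M1 (-0.63 ± 0.0888), M0 (-0.29 ± 0.0897) and M2 (-0.25 ± 0.0962). The M2 call, at an adjusted p of 0.0472, was lost without any of 17 libraries (-0.25 to -0.21), and the M0 call without M0+ONX-0914 replicate 3 (-0.23), M0 replicate 1 (-0.22) or M0 replicate 3 (-0.27).

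Cdkn1b (chr6:134920401-134925513), p27, had 13.0, 14.1, 13.9 and 12.1 CPM in M1+ONX-0914, against 18.8, 13.1, 20.5 and 21.8 CPM in M1. It had 31.8, 27.7, 29.0 and 30.1 CPM in M2+ONX-0914, against 29.4, 27.4, 28.7 and 31.3 CPM in M2. M0+ONX-0914 libraries had 39.6, 41.8, 46.5 and 42.6 CPM, against 44.0, 43.3, 42.2 and 41.8 CPM in M0. The order M1, M2, M0 held without overlap of libraries between states, and M1 replicate 2 lay among the treated M1 libraries. Cdkn1b fell in M1 against M0 (-1.20 ± 0.0943, adjusted p = 6.75e-12) and in M2 against M0 (-0.55 ± 0.0894, adjusted p = 1.53e-05). ONX-0914 lowered it in M1 (-0.49 ± 0.102, adjusted p = 0.000306), with 0.02 in M2 and -0.01 in M0, and the M1 call was lost with the M1 libraries fitted alone (-0.40).

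**Figure D4:**
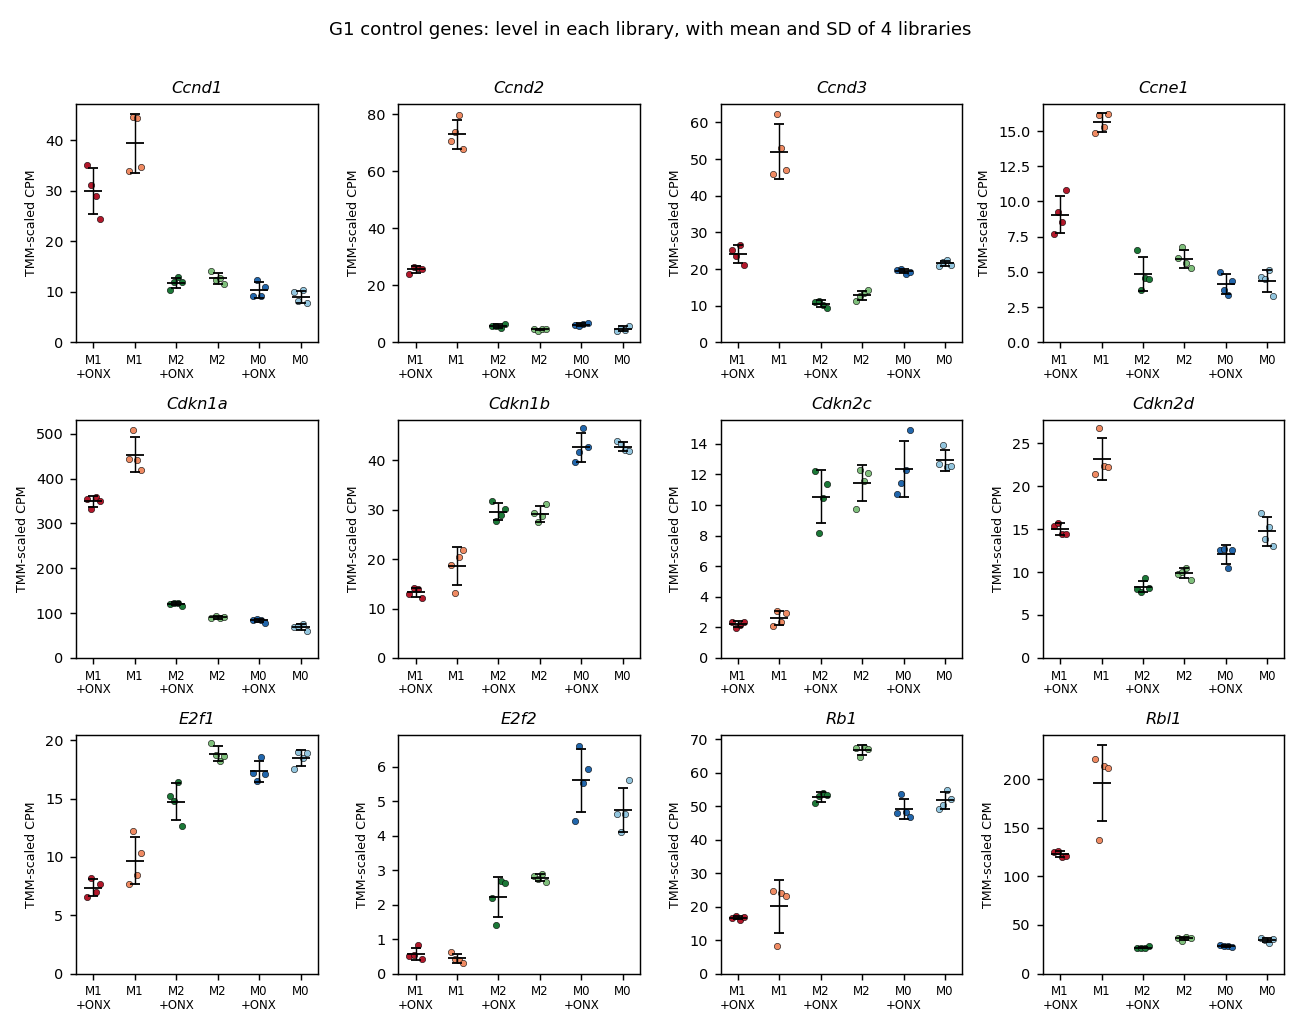
TMM-scaled CPM of 12 genes of G1 control in each library, by group from M1+ONX-0914 to M0; points are libraries and bars the mean and SD of 4. Ccnd2 stands at 24 to 26.6 CPM in M1+ONX-0914, against 68.0 to 79.8 CPM in M1, and the low M1 point of Rb1 and Rbl1 is replicate 2.

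The MCM proteins form the replicative helicase, Mcm2 to Mcm7, that is loaded at origins in G1. With ONX-0914 all 6 fell in M1, by between -0.84 and -0.25, and Mcm2, Mcm3, Mcm4, Mcm5 and Mcm7 also fell in M2. Mcm5 (chr8:75109569-75128439) had 7.50, 7.62, 8.01 and 8.77 CPM in M1+ONX-0914, against 12.0, 18.5, 14.0 and 12.8 CPM in M1. It had 9.02, 8.24, 9.68 and 8.58 CPM in M2+ONX-0914, against 15.6, 18.1, 15.6 and 14.7 CPM in M2. The values in M0+ONX-0914 were 6.84, 7.93, 7.22 and 5.83 CPM, against 6.56, 7.75, 8.07 and 7.70 CPM in M0. Both polarized groups stood above all M0 libraries, and the treated M1 and M2 libraries came near the M0 range. The change was 0.92 ± 0.116 for M1 against M0 and 1.09 ± 0.113 for M2 against M0 (adjusted p = 1.1e-08). With ONX-0914 it was -0.84 ± 0.118 in M1, -0.85 ± 0.112 in M2 (adjusted p = 7.27e-07) and -0.11 ± 0.12 in M0. The promoter stretch of Mcm5 printed above carries a pair of overlapping E2F matches.

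Mcm3 had 15.9, 15.4, 17.0 and 19.0 CPM in M1+ONX-0914, against 27.8, 33.7, 27.4 and 29.4 CPM in M1. It had 28.5, 28.6, 25.9 and 28.2 CPM in M2+ONX-0914, against 37.2, 38.4, 37.1 and 34.0 CPM in M2. In M0+ONX-0914 the libraries had 22.5, 24, 23.7 and 25.3 CPM, against 30.7, 31.7, 31.8 and 30.9 CPM in M0. All 3 states separated treated from untreated libraries. The change with ONX-0914 was -0.82 ± 0.0729 in M1 (adjusted p = 5.81e-10), -0.40 ± 0.068 in M2 and -0.39 ± 0.0688 in M0 (adjusted p = 0.000134). Mcm2 averaged 9.36 ± 0.817 CPM in M1+ONX-0914 and 12.6 ± 2.56 CPM in M1, 19.4 ± 1.89 CPM in M2+ONX-0914 and 24.9 ± 2.59 CPM in M2, and 12.7 ± 0.993 CPM in M0+ONX-0914 and 15.1 ± 1.46 CPM in M0. Mcm2 was higher in M2 than in M0 (0.72 ± 0.105) and lower in M1 than in M0 (-0.26 ± 0.113, adjusted p = 0.0438). That M1 value was -0.41 without M1 replicate 2, and the call was lost without M1 replicate 1, 3 or 4 or M0 replicate 2 or 3, with values of -0.23 to -0.20. With ONX-0914 Mcm2 fell in M1 by -0.43, or by -0.28 without M1 replicate 2. Mcm4 averaged 15.2 ± 0.828 CPM in M1+ONX-0914 and 19.5 ± 1.52 CPM in M1, and 22.9 ± 0.484 CPM in M2+ONX-0914 and 27.1 ± 2.58 CPM in M2, and Mcm3 and Mcm4 both rose in M2 against M0 (0.23 and 0.53). Mcm6 and Mcm7 did not pass in M1 or M2 against M0. Their ONX-0914 changes in M1 were -0.25 ± 0.0684 and -0.54 ± 0.124. In M2 they were 0.08 ± 0.0662 for Mcm6, not called, and -0.32 ± 0.113 for Mcm7, and the Mcm6 call in M1 was lost with the M1 libraries fitted alone (-0.16). The Mcm4 call in M2 was lost without M2 replicate 2 or 4 (-0.21 each). The Mcm7 call in M2 was lost without replicate 2 or 3 of M2+ONX-0914 or replicate 1 or 2 of M2, with values of -0.31 to -0.24.

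Cdc6 and Cdt1 load the MCM helicase, and Cdc45 and the GINS complex activate it. Cdc6 (chr11:98907801-98923940) had 1.81, 2.96, 2.33 and 3.03 CPM in M2+ONX-0914, against 2.57, 3.65, 3.99 and 2.51 CPM in M2. It had 1.30, 1.32, 2.79 and 2.07 CPM in M1+ONX-0914, against 2.29, 2.08, 1.73 and 1.76 CPM in M1. M0+ONX-0914 libraries had 1.35, 2.03, 1.51 and 1.99 CPM, against 1.45, 1.08, 1.40 and 0.952 CPM in M0. M2 libraries were all above M0 ones, while treated and untreated libraries overlapped in every state. Cdc6 rose by 1.39 ± 0.236 in M2 against M0 (adjusted p = 3.11e-05) and by 0.69 ± 0.259 in M1 against M0 (adjusted p = 0.0208). The M1 call was lost without M1 replicate 1 (0.61) or M0 replicate 4 (0.58). Cdt1 averaged 32.7 ± 0.949 CPM in M1+ONX-0914 and 43.7 ± 6.15 CPM in M1, 28.2 ± 0.517 CPM in M2+ONX-0914 and 33.9 ± 2.36 CPM in M2, and 30.8 ± 1.04 CPM in M0+ONX-0914 and 32.3 ± 0.994 CPM in M0. It rose in M1 against M0 (0.43 ± 0.0701) and fell with ONX-0914 in M1 (-0.42 ± 0.0708) and M2 (-0.26 ± 0.0706).

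Cdc45 (chr16:18780447-18811987) had 1.65, 3.06, 3.02 and 2.79 CPM in M1+ONX-0914, against 1.85, 2.91, 2.83 and 1.89 CPM in M1. It had 5.06, 4.72, 5.56 and 5.41 CPM in M2+ONX-0914, against 5.55, 6.85, 4.55 and 4.97 CPM in M2. The values in M0+ONX-0914 were 4.89, 4.34, 5.71 and 5.07 CPM, against 5.93, 4.41, 5.60 and 4.39 CPM in M0. Its M1 libraries, treated or not, lay below all others. It fell in M1 against M0 (-1.10 ± 0.185, adjusted p = 7.93e-06), and no ONX-0914 test passed. Gins1 averaged 2.65 ± 0.392 CPM in M1+ONX-0914 and 4.34 ± 1.13 CPM in M1, a fall of -0.71 ± 0.189 (adjusted p = 0.00309), with 0.05 in M2 and -0.33 in M0. Gins2 averaged 4.37 ± 0.968 CPM in M1+ONX-0914 and 6.24 ± 1.34 CPM in M1, 2.75 ± 0.488 CPM in M2+ONX-0914 and 4.53 ± 0.432 CPM in M2, and 2.28 ± 0.341 CPM in M0+ONX-0914 and 3.39 ± 0.669 CPM in M0. Its falls were -0.51 ± 0.173, -0.72 ± 0.18 and -0.56 ± 0.189 in M1, M2 and M0, and the M1 call was lost without M1+ONX-0914 replicate 1 (-0.41), M1 replicate 1 (-0.44) or M1 replicate 2 (-0.40). The M0 call was lost without M0+ONX-0914 replicate 1, 2 or 4 or M0 replicate 1 or 3, with values of -0.59 to -0.47. Exons of Gse1, on the opposite strand, cover 67.3% of the exon length of Gins2, so its counts are uncertain.

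Pcna, the clamp that holds DNA polymerase on the template, fell by nearly the same amount in each state. It had 241, 212, 220 and 224 CPM in M1+ONX-0914, against 313, 268, 295 and 306 CPM in M1. It had 183, 182, 195 and 169 CPM in M2+ONX-0914, against 252, 256, 231 and 236 CPM in M2. The values in M0+ONX-0914 were 170, 171, 154 and 152 CPM, against 233, 219, 219 and 201 CPM in M0. No treated library reached an untreated one of its own state. The change with ONX-0914 was -0.40 ± 0.0613 in M1, -0.42 ± 0.0613 in M2 and -0.43 ± 0.0614 in M0 (adjusted p = 8.24e-06), and the differences of effect did not pass. Pcna was also higher in M1 than in M0 (0.44 ± 0.0613). In M2 against M0 it was 0.16 ± 0.0611 (adjusted p = 0.0394), a call lost without M2 replicate 1 or 2 or M0 replicate 2, 3 or 4 (0.12 to 0.16) and under 4 other settings (0.13 to 0.15). Uhrf1, which brings maintenance DNA methylation to the fork, averaged 7.47 ± 0.76 CPM in M1+ONX-0914 and 12.2 ± 2.05 CPM in M1, 10.3 ± 0.254 CPM in M2+ONX-0914 and 12.3 ± 1.49 CPM in M2, and 6.47 ± 1.21 CPM in M0+ONX-0914 and 6.18 ± 0.659 CPM in M0. It rose in both M1 and M2 against M0 (0.98 ± 0.127 and 0.99 ± 0.124) and fell with ONX-0914 in M1 (-0.71 ± 0.127), while -0.26 in M2 did not pass.

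Deoxynucleotides for replication come from ribonucleotide reductase (Rrm1 and Rrm2), thymidylate synthase (Tyms) and thymidine kinase (Tk1). Rrm2 (chr12:24708241-24714146) had 9.02, 7.69, 9.19 and 9.13 CPM in M2+ONX-0914, against 9.95, 11.8, 9.27 and 11.0 CPM in M2. It had 3.5, 4.38, 4.45 and 3.38 CPM in M1+ONX-0914, against 5.03, 4.85, 6.76 and 6.92 CPM in M1. In M0+ONX-0914 the libraries had 6.19, 5.05, 5.21 and 5.55 CPM, against 4.25, 4.27, 4.93 and 4.43 CPM in M0. M2 libraries were the highest, and M0 was the state in which treated libraries lay above untreated ones. Rrm2 rose in M2 against M0 (1.23 ± 0.12, adjusted p = 3.45e-09) and fell with ONX-0914 in M1 (-0.59 ± 0.135), with -0.26 in M2 and 0.30 in M0, neither called. Rrm1, the large subunit, averaged 22.6 ± 2.71 CPM in M1+ONX-0914 and 31.4 ± 2.02 CPM in M1, 38.7 ± 4.76 CPM in M2+ONX-0914 and 47.4 ± 2.54 CPM in M2, and 47.0 ± 3.89 CPM in M0+ONX-0914 and 49.1 ± 3.18 CPM in M0. It fell in M1 against M0 (-0.65 ± 0.0855), where Rrm2 rose (0.40 ± 0.13, not called with the libraries of that comparison alone). With ONX-0914, Rrm1 fell in M1 (-0.48 ± 0.0901, adjusted p = 8.17e-05) and in M2, and did not pass in M0. Tyms averaged 5.51 ± 0.73 CPM in M1+ONX-0914 and 8.64 ± 0.218 CPM in M1, rose in M1 and M2 against M0 (0.90 and 0.58), and fell with ONX-0914 in M1 (-0.64 ± 0.125), with -0.05 in M2. Tk1 averaged 3.34 ± 0.686 CPM in M1+ONX-0914 and 4.78 ± 0.814 CPM in M1, and 4.02 ± 0.251 CPM in M2+ONX-0914 and 5.39 ± 0.908 CPM in M2. Its M1 call (-0.51) was lost without M1+ONX-0914 replicate 4 (-0.37) or M1 replicate 2 (-0.41), and its M2 call (-0.43) without M2+ONX-0914 replicate 1, 3 or 4 or M2 replicate 1 or 3, with values of -0.42 to -0.33.

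Cyclins A2, B1 and B2 activate Cdk1 for entry into mitosis. Ccna2 (chr3:36564865-36572150) had 2.8, 1.98, 2.08 and 1.07 CPM in M1+ONX-0914, against 4.14, 4.36, 4.45 and 4.03 CPM in M1. It had 3.91, 3.06, 4.57 and 3.42 CPM in M2+ONX-0914, against 5.32, 6.15, 7.28 and 4.77 CPM in M2. M0+ONX-0914 libraries had 3.91, 4.81, 4.98 and 4.74 CPM, against 4.20, 4.27, 5.65 and 4.80 CPM in M0. Treated libraries lay below all untreated ones in M1 and M2 and among them in M0. The change with ONX-0914 was -1.08 ± 0.201 in M1 (adjusted p = 7.14e-05), -0.65 ± 0.17 in M2 (adjusted p = 0.00329) and -0.04 ± 0.168 in M0. Ccna2 did not pass in M1 or M2 against M0.

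Ccnb2 (chr9:70407692-70421547) had 1.15, 0.720, 1.01 and 0.533 CPM in M1+ONX-0914, against 1.78, 1.87, 2.37 and 1.89 CPM in M1. It had 2.15, 1.71, 1.74 and 1.44 CPM in M2+ONX-0914, against 3.67, 2.5, 3.03 and 2.12 CPM in M2. The values in M0+ONX-0914 were 3.44, 2.88, 2.33 and 2.37 CPM, against 2.46, 3.09, 3.24 and 2.82 CPM in M0. These levels rest on 9 to 23 counts per M1+ONX-0914 library and 27 to 41 per M1 library. The treated and untreated groups did not overlap in M1, and overlapped by 1 library on each side in M2. Ccnb2 fell with ONX-0914 in M1 (-1.20 ± 0.244, adjusted p = 0.000222) and M2 (-0.69 ± 0.196, adjusted p = 0.00687), with -0.07 ± 0.184 in M0. It was also lower in M1 than in M0 (-0.55 ± 0.2, adjusted p = 0.0177). Cdk1 averaged 4.34 ± 0.557 CPM in M1+ONX-0914 and 5.39 ± 0.75 CPM in M1, 5.46 ± 0.732 CPM in M2+ONX-0914 and 7.57 ± 0.892 CPM in M2, and 5.42 ± 0.493 CPM in M0+ONX-0914 and 5.54 ± 0.555 CPM in M0. It rose in M2 against M0 (0.45 ± 0.121) and fell with ONX-0914 in M2 (-0.47 ± 0.122, adjusted p = 0.00316), while -0.31 in M1 had an adjusted p of 0.0623. Ccnb1 rose in M2 against M0 (0.46 ± 0.132) and passed no ONX-0914 test.

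Of the 9 genes of mitosis and chromosome segregation, 7 fell with ONX-0914 in M1, 5 in M2 and 1 in M0, beside 27.7%, 18.8% and 11.4% of all genes in those states, and the 11.1% in M0 was near that background. Mki67, the proliferation antigen Ki-67, had 12.4, 16.8, 18 and 16.1 CPM in M1+ONX-0914, against 28.7, 27.5, 26.9 and 28.2 CPM in M1. It had 12.1, 12.5, 11.4 and 15.6 CPM in M2+ONX-0914, against 16.0, 18.3, 16.1 and 16.2 CPM in M2. In M0+ONX-0914 the libraries had 13.4, 13.1, 14.8 and 18 CPM, against 11.8, 15.7, 15.6 and 18.2 CPM in M0. The M1 libraries were the highest, and all 4 treated M1 libraries lay within the M0 range. Mki67 rose in M1 against M0 (0.86 ± 0.12, adjusted p = 4.1e-07) and fell with ONX-0914 in M1 (-0.82 ± 0.121, adjusted p = 3.22e-06) and M2 (-0.37 ± 0.123, adjusted p = 0.0206), the last lost without M2+ONX-0914 replicate 1 or 3 or M2 replicate 2 (-0.34 to -0.31). None of the other 8 mitosis genes rose in M1 against M0, and Bub1b, Top2a and Aurkb fell.

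Bub1b, the spindle checkpoint kinase BubR1, had 3.85, 4.20, 4.21 and 5.63 CPM in M1+ONX-0914, against 5.92, 7.61, 6.18 and 7.93 CPM in M1. It had 4.68, 5.32, 5.46 and 6.60 CPM in M2+ONX-0914, against 10.1, 9.75, 8.75 and 10.5 CPM in M2. M0+ONX-0914 libraries had 9.03, 8.92, 7.49 and 9.53 CPM, against 11.4, 10.5, 12.8 and 11.4 CPM in M0. Treated and untreated libraries did not overlap in any state. The change with ONX-0914 was -0.63 ± 0.135 in M1, -0.82 ± 0.121 in M2 (adjusted p = 4.23e-06) and -0.40 ± 0.114 in M0 (adjusted p = 0.0121), and the M0 call was lost without replicate 3 of M0+ONX-0914 (-0.33) or of M0 (-0.35). Bub1b was lower in M1 than in M0 (-0.74 ± 0.12).

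Aurkb (chr11:69045647-69051664), the kinase of the chromosomal passenger complex, had 0.800, 0.840, 1.54 and 1.42 CPM in M1+ONX-0914, against 1.66, 2.49, 3.41 and 1.83 CPM in M1. It had 1.38, 2.21, 2.63 and 2.08 CPM in M2+ONX-0914, against 2.8, 3.05, 3.21 and 2.70 CPM in M2. M0+ONX-0914 libraries had 2.51, 2.64, 2.65 and 3.46 CPM, against 3.81, 2.94, 3.77 and 2.98 CPM in M0. Each treated library of M1 and M2 lay below every untreated one. The fall was -1.04 ± 0.253 in M1 (adjusted p = 0.00137), and -0.50 in M2 had an adjusted p of 0.0656. In M1 against M0 Aurkb fell by 0.51 on the log2 scale (adjusted p = 0.0344), a call lost without M1 replicate 1 or 4 or M0 replicate 1 or 3 (-0.46 to -0.38). Aurka, the centrosomal Aurora kinase, fell in M1 (-0.60 ± 0.151), with -0.14 in M2. Top2a, the topoisomerase that separates sister DNA, averaged 9.70 ± 1.07 CPM in M1+ONX-0914 and 12.7 ± 2.17 CPM in M1, and 13.2 ± 1.44 CPM in M2+ONX-0914 and 19.4 ± 1.38 CPM in M2, with log2 changes of -0.40 ± 0.111 and -0.56 ± 0.101. Bub1, a checkpoint kinase, fell in M1 (-0.62 ± 0.22) and M2 (-0.57 ± 0.201), the M1 call lost without M1+ONX-0914 replicate 2 or 4 or M1 replicate 3 (-0.60 to -0.45) and the M2 call without M2+ONX-0914 replicate 2 or M2 replicate 2 or 3 (-0.56 to -0.46). Plk1, the Polo kinase, fell in M2 (-0.56 ± 0.169, lost without M2+ONX-0914 replicate 3, at -0.40, or M2 replicate 2, at -0.43), with -0.43 in M1 at an adjusted p of 0.0605. Cdc20, the activator of the anaphase-promoting complex, fell in M1 at an adjusted p of 0.0483 (-0.57 ± 0.231), a call lost without any of 17 libraries (-0.60 to -0.41). Birc5, survivin, passed no test.

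**Figure D5:**
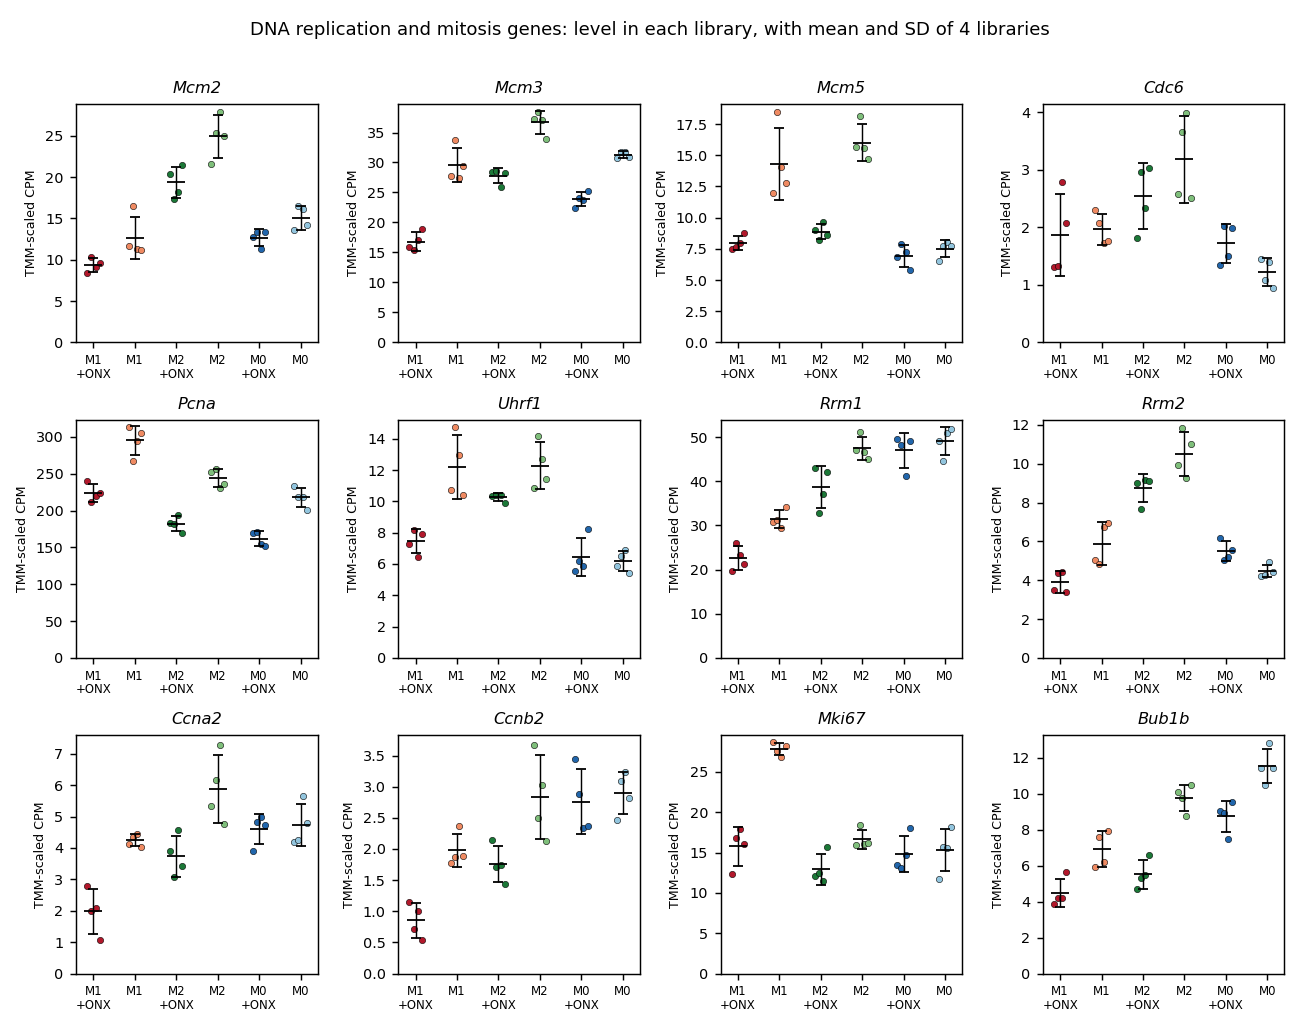
TMM-scaled CPM of 12 genes of DNA replication and mitosis in each library, by group from M1+ONX-0914 to M0; points are libraries and bars the mean and SD of 4. Pcna, Mcm3 and Bub1b step down with ONX-0914 in every state, whereas Ccna2 and Ccnb2 step down in M1 and M2 and their M0 groups overlap. The M2 groups of Ccnb2 also overlap.

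Whether the effect of ONX-0914 differed between states was tested as a difference of log2 changes. Between M1 and M0, 19 of the 46 genes had a lower effect in M1 and none a higher one, beside 19.3% of all genes called, 6.90% upward and 12.4% downward. The median difference of the 46 was -0.449, beside -0.064 for all genes. Ccnd2 had the largest difference of the 46 (-1.90 ± 0.136, adjusted p = 1.88e-10), followed by the mitotic cyclins Ccnb2 (-1.12 ± 0.306) and Ccna2 (-1.04 ± 0.262). Among the other D cyclins, Ccnd3 (-0.96 ± 0.126) and Ccnd1 (-0.60 ± 0.172) were also called. Rrm2 (-0.89 ± 0.185), Uhrf1 (-0.77 ± 0.182), Mki67 (-0.77 ± 0.172), Tyms (-0.74 ± 0.179) and Mcm5 (-0.73 ± 0.168) followed, and Cdkn1a differed by -0.65 ± 0.0883. With the libraries of that comparison alone 13 genes were called, without Ccnd1, Cdk6, Cdkn1b, Cdt1, Rbl1 and Rrm1. The Rbl1 call was lost without any of 12 libraries (-0.39 to -0.32), the Cdk6 call without any of 7 (-0.29 to -0.26), the Ccne1 call without M0+ONX-0914 replicate 1 (-0.59) or M0 replicate 4 (-0.58), and the Rrm1 call without M1+ONX-0914 replicate 1 (-0.35).

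Between M1 and M2, 8 genes had a lower effect in M1 and none a higher one, beside 13.5% of all genes called, 3.80% upward and 9.68% downward. They were Ccnd2 (-1.85 ± 0.139), Ccnd3 (-0.82 ± 0.132), Cdkn1a (-0.79 ± 0.0878), Gins1 (-0.76 ± 0.26), Tyms (-0.59 ± 0.174), Cdkn1b (-0.51 ± 0.137), Mcm3 (-0.42 ± 0.0996) and Mcm6 (-0.34 ± 0.0952). The mitosis genes were not among them, and their falls in M1 and in M2 were not shown to differ. The Gins1 call, at an adjusted p of 0.05 as rounded, was lost without any of 19 libraries (-0.81 to -0.61), and the Tyms call without M1+ONX-0914 replicate 2, M2+ONX-0914 replicate 1 or M2 replicate 4 (-0.53 to -0.47). With the libraries of that comparison alone, 4 genes were called, 1 of them upward. The calls of Gins1, Tyms, Cdkn1b, Mcm3 and Mcm6 were lost in that fit. Those of Gins1 and Mcm6 were also lost with no filter on low counts. Between M2 and M0, only Mcm5 (-0.74 ± 0.164, adjusted p = 0.00524) and Rrm2 (-0.56 ± 0.169, adjusted p = 0.0456) were called, beside 6.17% of all genes, 3.44% upward and 2.74% downward. The Rrm2 call was lost without any of 14 libraries (-0.60 to -0.49), and without M1 replicate 2, which enters through the shared spread, the number called was 7.

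Other genes of the same pathways, from lists chosen with results of these data known, are given by their counts beside all genes. With ONX-0914, 27.7% of all genes fell and 16.6% rose in M1, 18.8% fell and 17.6% rose in M2, and 11.4% fell and 9.54% rose in M0. The medians of all genes were -0.081 in M1, -0.0012 in M2 and -0.00082 in M0. Of 40 further DNA replication factors tested, 20 fell and 3 rose with ONX-0914 in M1 (median -0.26), 15 fell and 4 rose in M2 (-0.153), and 10 fell and 1 rose in M0 (-0.164), so that 50% of the list fell in M1, 37.5% in M2 and 25% in M0. Timeless, a fork protection factor, averaged 31.7 ± 1.93 CPM in M1+ONX-0914 and 97.68 ± 9.23 CPM in M1, with 3.892 ± 0.597 CPM in M0. Its log2 change was 4.65 ± 0.117 in M1 against M0 and -1.62 ± 0.0954 with ONX-0914 in M1. Of 49 further mitosis genes, 15 fell and 2 rose with ONX-0914 in M1 (median -0.293), 17 fell and 2 rose in M2 (-0.351), and 2 fell and 1 rose in M0 (-0.0961). The 30.6% that fell in M1 was near the share of all genes, and 34.7% fell in M2. In M1 against M0, 22 of those 49 fell (44.9%) and 4 rose (8.16%), beside 34.2% and 34.6% of all genes, with a median of -0.39 beside -0.02. Among the few that rose was Tpx2, a spindle assembly factor, at 55.17 ± 0.51 CPM in M1+ONX-0914, 94.91 ± 4 CPM in M1 and 14.69 ± 1.36 CPM in M0.

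The transcription factor, CDK inhibitor and G1 list of 35 genes split in both directions with ONX-0914: 9 fell and 8 rose in M1, 7 fell and 10 rose in M2, and 4 fell and 6 rose in M0. The shares that fell, 25.7% in M1, 20% in M2 and 11.4% in M0, were near those of all genes. E2f6, a repressor E2F that does not bind retinoblastoma proteins, rose in all 3 tests. It averaged 76.28 ± 3.65 CPM in M1+ONX-0914 and 20.6 ± 1.78 CPM in M1, 76.38 ± 2.3 CPM in M2+ONX-0914 and 29.19 ± 1.19 CPM in M2, and 51.99 ± 3.52 CPM in M0+ONX-0914 and 29.06 ± 1.76 CPM in M0. The log2 changes were 1.89 ± 0.0645, 1.39 ± 0.0611 and 0.84 ± 0.0613. E2f8, another repressor E2F, fell in M1 (-1.49 ± 0.139), where Cdkn1c, the inhibitor p57, also fell (-1.08 ± 0.0887). Myc, which promotes growth, fell in M2 (-0.64 ± 0.101), and Foxm1, the activator of mitotic genes, fell there too (-0.66 ± 0.148).

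Cdkn1a is a target of p53, and 23 other genes from a list of p53 targets were tested beside it. That list also names the p53 gene itself and shares some genes with the G1 list. With ONX-0914, 6 fell and 7 rose in M1 (median 0.0697), 3 fell and 12 rose in M2 (0.214), and 2 fell and 4 rose in M0 (0.0832). The shares that fell, 26.1% in M1 and 8.7% in M0, were near those of all genes, and 52.2% rose in M2 beside 17.6% of all genes. Plk3, a stress-responsive Polo kinase, rose in M1 (1.35 ± 0.109) and M0 (0.94 ± 0.128). Gadd45a, a growth-arrest gene, averaged 12.4 ± 1.49 CPM in M1+ONX-0914 and 6.09 ± 1.44 CPM in M1, and 36.65 ± 1.69 CPM in M2+ONX-0914 and 20.65 ± 2.28 CPM in M2. It rose by 1.03 ± 0.123 in M1 and by 0.83 ± 0.0959 in M2. The share of the list that rose was 30.4% in M1, beside 16.6% of all genes, and 17.4% in M0, beside 9.54%. Cdkn1a fell in M1, as did 6 genes of the list, while 7 rose, Plk3 and Gadd45a among them.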

How the data were processed

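Per the labels' protocols, RNA of pooled peritoneal macrophages was made into cDNA libraries and sequenced as read pairs. Per the submitters' processing notes, FastQC 0.11.9, cutadapt 2.8, Bowtie2 2.2.5, Picard and the build mm10 were used. The counting tool, strand setting and annotation were not stated in any source at hand. The authors deposited raw counts per Ensembl gene, as whole numbers without normalization. GENCODE M21 gave symbols for 54495 features, with positions and exon lengths on GRCm38. The other 37 features held 0.00109% to 0.00432% of the counts.

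Counts were tested in edgeR 4.0.16 (R 4.3.3) with filterByExpr, TMM and 1 mean per group in a quasi-likelihood fit of all 24 libraries (18 residual degrees of freedom). Calls needed an adjusted p (Benjamini-Hochberg) below 0.05 over all 14692 genes tested, with no minimum fold. Each SE is the log2 change over the root of its F statistic, and 95% intervals use 18 degrees of freedom. The fit was tested on simulated data with M0 means in every group and changes planted in M0+ONX-0914. Those data hold neither the differences between states nor an outlying library, so the fit was not tested for these. Precision from total counts of 18230924 to 22882972 covers counting error only: 3 counts is the limit that a count of 0 allows. The labels call the 4 replicates of a group independent, and no 2 of the 36 within-group pairs agreed within sampling noise. The chi-square per gene of a pair, higher for less alike libraries, was 63.2, 55.9 and 59.5 for M1 replicate 2 with replicates 1, 3 and 4. It was 3.02 to 5.35 between the other M1 libraries.

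Alternatives were DESeq2 1.42.0 size factors, its Wald test, other filters on low counts, the libraries of a comparison alone, a replicate block, and leaving out each library. Any of the 46 genes may be named, and those called with a log2 change of at least 1 in size and at least 1 CPM in the higher group are given in every library, with others added after their values were seen. From other lists at most 4 called genes per comparison, those with the largest changes, are named. The members and lists were chosen with earlier results of these data known.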

Additional observations from a re-analysis of the deposited data

Results flagged for a closer look

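A library far from the other 3 of its group was found in 16 of 276 gene-and-group combinations, where about 13.8 would be found by chance at 1 in 20. In M1 replicate 2, Mcm2 stood high at 16.5 CPM (others 11.1 to 11.7 CPM) and Cdkn2d high at 26.8 CPM (others 21.4 to 22.3 CPM). In the same library Rb1 stood low at 8.38 CPM (others 23.1 to 24.7 CPM) and Rbl1 low at 138 CPM (others 212 to 221 CPM). That library also had the low mitochondrial share, whose part in these values was not tested. Among M1+ONX-0914 libraries, Tk1 was low in replicate 4 at 2.31 CPM. Among M2+ONX-0914 libraries, Mcm3 was low in replicate 3 at 25.9 CPM, Uhrf1 low in replicate 4 at 9.87 CPM, Rrm2 low in replicate 2 at 7.69 CPM and Rbl1 high in replicate 4 at 27.9 CPM. Among M2 libraries, Mcm4 was low in replicate 1 at 23.3 CPM and Mki67 high in replicate 2 at 18.3 CPM. Among M0+ONX-0914 libraries, Rrm1 was low in replicate 3 at 41.2 CPM, Cdkn2d low in replicate 3 at 10.5 CPM and Aurkb high in replicate 4 at 3.46 CPM. Among M0 libraries, Cdkn2c was high in replicate 2 at 13.9 CPM and Top2a high in replicate 3 at 18 CPM.

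The test of the difference itself called a different effect of ONX-0914 in 29 results, all of them lower in the first-named state. For M1 minus M0 the differences were -1.90 for Ccnd2, -1.12 for Ccnb2, -1.04 for Ccna2, -0.96 for Ccnd3, -0.89 for Rrm2, -0.77 for Uhrf1, -0.77 for Mki67, -0.74 for Tyms, -0.73 for Mcm5, -0.70 for Ccne1, -0.65 for Cdkn1a, -0.60 for Ccnd1, -0.48 for Cdkn1b, -0.47 for Cdk2, -0.43 for Mcm3, -0.42 for Rrm1, -0.38 for Rbl1, -0.34 for Cdt1 and -0.30 for Cdk6. For M2 minus M0 they were -0.74 for Mcm5 and -0.56 for Rrm2. For M1 minus M2 they were -1.85 for Ccnd2, -0.82 for Ccnd3, -0.79 for Cdkn1a, -0.76 for Gins1, -0.59 for Tyms, -0.51 for Cdkn1b, -0.42 for Mcm3 and -0.34 for Mcm6. M1 minus M0 and M2 minus M0 share the M0 and M0+ONX-0914 libraries, and M1 minus M2 shares libraries with both.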

How the results depend on the processing

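Of 182 called results on the 46 genes, 133 were called under every alternative, 49 ended under at least 1, and 0 reversed. For ONX-0914 in M0, the number called (8) ran from 4 to 9 as each library was left out, with 4 without M0 replicate 1. For the effect in M2 minus M0, the number called (2) was 5 with the DESeq2 Wald test, 3 with DESeq2 size factors in edgeR, 3 with at least 1 CPM in 4 libraries, 1 with no filter on low counts, 1 with the replicate block and 7 when just its own libraries were fitted, and ran from 1 to 7 as each library was left out. All genes called there (907) were 1590 with the libraries of the comparison alone, and ran from 660 to 1672 as each library was left out, the highest without M1 replicate 2. For M1 minus M2, 8 genes called became 4 with the libraries of the comparison alone, 1 of them upward, and 6 to 9 as each library was left out. As each library was left out, counts ran from 33 to 36 for ONX-0914 in M1, 20 to 30 for ONX-0914 in M2, 28 to 33 for M1 against M0, 16 to 22 for M2 against M0 and 31 to 33 for M1 against M2. The cause of these shifts was not tested. Depth limits the low genes: the SE of the log2 change with ONX-0914 in M1 was 0.345 for E2f2, 0.302 for Ccne2 and 0.251 for Cdc6.

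The replicate numbers showed no clear pairing of the libraries, and whether libraries with the same number share mice or a day was not tested. Over 60 pairs with the same number in different groups, deviations from group means correlated at r = -0.048 to 0.085, 0 of them over 0.1, and 7 of 24 libraries correlated best with their own number. With the replicate block, the genes called numbered 36 for ONX-0914 in M1, 27 in M2 and 8 in M0, 32 for M1 against M0, 20 for M2 against M0 and 33 for M1 against M2.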
